A study of Homo sapiens with 12 samples.

Results

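The mevalonate pathway turns acetyl-CoA into isoprenoids, and its trunk up to squalene is covered here by 9 genes: ACAT2, HMGCS1, MVK, PMVK, MVD, IDI1, FDPS, GGPS1 and FDFT1. The rule that names them is their known enzymatic step, from acetoacetyl-CoA to squalene, and uses no measured value, though it was drawn up with earlier results of these data known. All 9 were found among the 57865 genes into which the deposited transcript values were summed with GENCODE 29, and all 9 were among the 15424 genes tested. RNA sequencing was done on 12 libraries from 4 human cell lines derived from acute myeloid leukaemia, named MOLM-14, MV4-11, OCI-AML3 and KG-1a. Every one of them gave 1 library with pioglitazone at 10 µM, 1 with darglitazone at 10 µM and 1 with the solvent DMSO, all after 12 hours. MOLM-14 and MV4-11 carry a KMT2A fusion and an internal tandem duplication of FLT3, OCI-AML3 carries mutant NPM1 and lacks such a fusion, and KG-1a is an immature, CD34-positive line. The cell line therefore served as the replicate (n = 4 per treatment), and no repeat culture of a line was sequenced. Level differences between lines were removed in the drug comparisons, so their p-values measure how unevenly a treatment difference repeats across lines. In the test of cell line, the spread is that among a line's libraries, which carry different treatments, after the treatment term.

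Pioglitazone and darglitazone are thiazolidinediones, ligands of the nuclear receptor PPARgamma that share the thiazolidinedione head group. Pioglitazone ends in an ethylpyridine joined through an ether, and darglitazone ends in a phenyl-substituted methyloxazole joined through a ketone.

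ACAT2 is the cytosolic thiolase that joins acetyl-CoA units into acetoacetyl-CoA, and HMGCS1 adds a further unit to give HMG-CoA. After its reduction to mevalonate, MVK and PMVK add phosphates in turn, MVD removes a carboxyl group to give isopentenyl diphosphate, and IDI1 converts this unit into its isomer. FDPS joins the units into farnesyl diphosphate. At this branch point FDFT1, squalene synthase, commits farnesyl units to sterols, while GGPS1 makes geranylgeranyl diphosphate, which is used to anchor small GTPases in membranes. Transcription of many of these genes is known to be driven by SREBP2, a membrane-bound factor released when sterols in the endoplasmic reticulum are low, acting with NF-Y at CCAAT boxes and SP1 at GC boxes.

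Promoter sequence is shown for HMGCS1, MVD and MVK, which had the 3 largest pioglitazone fold changes among the 7 members with an entry in the promoter table, and for GGPS1, whose fold change was small. The sequences are from RefSeq (GRCh38.p14) and are written 5′ to 3′ on the gene's strand. Each is the stretch before both the RefSeq start and the start of the gene's most abundant transcript, at chr5:43313513-43313662 (minus strand), chr16:88663111-88663341 (minus strand), chr12:109573544-109573793 (plus strand) and chr1:235328320-235328569 (plus strand). Capitals mark CCAAT or GGGCGG on either strand.
HMGCS1: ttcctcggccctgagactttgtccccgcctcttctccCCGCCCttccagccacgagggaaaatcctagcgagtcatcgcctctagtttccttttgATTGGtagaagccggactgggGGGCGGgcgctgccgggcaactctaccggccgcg
MVD: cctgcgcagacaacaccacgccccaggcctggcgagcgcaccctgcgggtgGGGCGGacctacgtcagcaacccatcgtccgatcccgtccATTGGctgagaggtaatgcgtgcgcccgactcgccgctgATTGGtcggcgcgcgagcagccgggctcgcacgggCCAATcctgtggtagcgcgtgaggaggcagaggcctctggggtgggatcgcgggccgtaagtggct
MVK: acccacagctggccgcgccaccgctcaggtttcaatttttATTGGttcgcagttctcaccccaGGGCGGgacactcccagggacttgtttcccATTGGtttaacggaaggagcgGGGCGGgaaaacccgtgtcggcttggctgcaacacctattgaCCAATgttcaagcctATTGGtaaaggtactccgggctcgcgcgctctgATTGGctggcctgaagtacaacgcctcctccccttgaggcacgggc
GGPS1: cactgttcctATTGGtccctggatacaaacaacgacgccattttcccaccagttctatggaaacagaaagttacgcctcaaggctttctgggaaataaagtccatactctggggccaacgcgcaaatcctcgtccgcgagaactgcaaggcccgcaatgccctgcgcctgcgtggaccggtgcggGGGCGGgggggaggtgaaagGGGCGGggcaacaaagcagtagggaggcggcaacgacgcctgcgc

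In the 300-base window of each of the 7 genes nearest to its most abundant transcript (250 bases before and 50 after the RefSeq start), CCAAT occurred in 6 of 7, with PMVK the exception. MVK had 5 matches, MVD and FDPS 3 each, HMGCS1 and IDI1 2 each, and GGPS1 1. Of all 35116 windows of this length, 34.6% held CCAAT. The GC box GGGCGG occurred in 7 of 7 windows, against 45% of all windows. None of the 7 windows, nor any of the 12 windows of these genes, held TCACNCCAC, a core of the sterol response element (1.13% of all windows). None held the E-box CACGTG (7.26% of all windows) or a direct repeat of AGGTCA with 1 base between, the half-site repeat of PPAR response elements (0.0228% of all windows). Both strands were searched, and the motifs do not overlap one another in the sequences shown. A match is a description and not a binding site. For PMVK the RefSeq start lay 272 bases inside the GENCODE transcript, so its window does not reach upstream sequence and is not shown.

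The genes lie, on GRCh38 with GENCODE 29, at chr6:159760328-159779055 (ACAT2, plus strand), chr5:43289395-43313512 (HMGCS1, minus), chr12:109573255-109598117 (MVK, plus), chr1:154924734-154936991 (PMVK, minus), chr16:88651935-88663161 (MVD, minus), chr10:1039152-1049170 (IDI1, minus), chr1:155308748-155320666 (FDPS, plus), chr1:235327350-235344532 (GGPS1, plus) and chr8:11795573-11839309 (FDFT1, plus). The spans of some overlap those of neighbours, and no source used here says whether reads were counted by strand. ACAT2 overlaps TCP1 (186 to 447 CPM) on the opposite strand over 558 bases, MVK overlaps MMAB (22.4 to 93.4 CPM) over 620 bases, and GGPS1 overlaps ARID4B (19 to 64.4 CPM) over 870 bases. FDPS and IDI1 have processed pseudogenes, each at most 0.913 CPM for FDPS and 0.111 CPM for IDI1. GGPS1 also shares 15963 bases of its span on the same strand with ENSG00000285053 (1.12 to 17.8 CPM), so the GGPS1 level is uncertain.

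Depth was uneven. Library totals ran between 1095491 and 64236554 estimated counts, with the pioglitazone library of OCI-AML3 the shallowest, and 3 counts were worth 0.0467 to 2.74 CPM, a gene's count scaled to a common library total. The ribosomal-RNA-like gene FP671120.3 held 23.5% of counts with pioglitazone in KG-1a and 6.17% with pioglitazone in OCI-AML3, against 0.0421 to 0.542% in the other 10 libraries. Reads of KG-1a-specific genes (62) were present after pioglitazone in OCI-AML3, with a median of 2.05% relative to KG-1a itself, and reads of MV4-11-specific genes (6) after darglitazone in KG-1a, with a median of 3.94%. In MV4-11, MOLM-14-specific genes (4) stood at a median of 1.29% with darglitazone and 2.19% with DMSO, and OCI-AML3-specific genes (11) at 0.131% with darglitazone and 1.55% with DMSO. A gene counted as line-specific only at 5% or less of its line's mean level in every library of the other lines. These medians therefore cannot exceed 5%, and the true rates may be higher. At the medians given, foreign reads would make up 0.363 to 3.49% of a member's level in OCI-AML3 with pioglitazone. In KG-1a with darglitazone they would make up 1.12 to 6.78%. The leukocyte genes PTPRC, SPI1, CD33, CSF3R and LYZ were detected in all 12 libraries. CD34 was at 599 to 715 CPM in KG-1a and at most 7.9 CPM elsewhere, the T-cell gene CD3E was at 11.5 to 14.6 CPM in KG-1a, and the defining genes of B and red cells, MS4A1 and HBB, were at 0 in every library, with EPCAM at most 1.24 CPM. CPM is a share of a library, so fewer cells of a type and less RNA per cell cannot be told apart.

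Compared per transcript length, in TPM (a level scaled by transcript length and library total), the farnesyl steps were the most abundant of the pathway. FDPS had a median level of 216 TPM over the 12 libraries (142 to 388) and FDFT1 175 TPM (139 to 510), and these genes held the first 2 ranks in every library. ACAT2 was the third in every library at a median of 73.8 TPM (43.8 to 162). IDI1 (42.0 TPM, 21.1 to 72.3), MVD (29.6 TPM, 22.3 to 80.1), HMGCS1 (23.3 TPM, 12.6 to 96.4) and MVK (19.0 TPM, 11.4 to 34.6) followed with overlapping ranges. PMVK (12.5 TPM, 5.53 to 17.3) and GGPS1 (11.9 TPM, 6.63 to 51.2) had the lowest medians. HMGCS1 spanned the widest relative range of the 4 middle genes.

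Adding the 9 genes gave a summed level of 603.8 TPM in MOLM-14 with pioglitazone, 548.5 with darglitazone and 531.8 with DMSO. In OCI-AML3 the sum was 862.7 TPM with pioglitazone, 593.2 with darglitazone and 492.7 with DMSO. In MV4-11 it was 1297 TPM with pioglitazone, 714.1 with darglitazone and 707.8 with DMSO, and in KG-1a 713.9 TPM with pioglitazone, 621.5 with darglitazone and 519.7 with DMSO. Pioglitazone stood at 1.14 (MOLM-14), 1.75 (OCI-AML3), 1.83 (MV4-11) and 1.37 times (KG-1a) the DMSO sum, and darglitazone at 1.03, 1.2, 1.01 and 1.2 times in the same lines. TPM is a share of the whole library and is not corrected for FP671120.3, and protein-coding genes held 55.6% of the KG-1a pioglitazone library and 77.7% of the KG-1a DMSO library. On the TMM scale, added after the values were seen, the summed CPM with pioglitazone stood at 1.15 (MOLM-14), 1.65 (OCI-AML3), 2 (MV4-11) and 1.97 times (KG-1a) the DMSO sum, so that KG-1a stands above OCI-AML3 on this scale and below it in TPM. With darglitazone the CPM ratios were 1.06, 1.22, 1.08 and 1.24 in the same lines.

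Level by library follows along the pathway, in TMM-scaled CPM (scaled by the trimmed mean of M values), where the values of a treatment stand for MOLM-14, then OCI-AML3, then MV4-11, then KG-1a. For ACAT2, the thiolase of the entry step, the libraries read 92, 128, 244 and 300 CPM with pioglitazone, 85.9, 84.7, 117 and 169 CPM with darglitazone, and 83.9, 72.1, 115 and 124 CPM with DMSO. The pioglitazone library was the highest of its line in all 4 lines, by little in MOLM-14, while the ranges of the 3 treatments overlapped because the lines differ. HMGCS1, the HMG-CoA synthase, had 34.4, 148, 73.9 and 283 CPM with pioglitazone, 31.4, 62.1, 25.7 and 91.9 CPM with darglitazone, and 26.4, 42.1, 28.6 and 77.3 CPM with DMSO. Its pioglitazone library again led every line, and darglitazone stood below DMSO in MV4-11 alone.

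Of the 2 kinases, MVK, which phosphorylates mevalonate, had 41.5, 23.7, 57.9 and 49 CPM with pioglitazone, 35.7, 22.7, 23.8 and 41.7 CPM with darglitazone, and 32.6, 16.8, 25.6 and 22.9 CPM with DMSO. Pioglitazone led every line, and both drugs stood above DMSO in KG-1a, where darglitazone reached 41.7 CPM, close to pioglitazone. PMVK, the phosphomevalonate kinase, had 20.3, 6.14, 12.9 and 12 CPM with pioglitazone, 20.1, 10.4, 14.4 and 18.6 CPM with darglitazone, and 19.4, 12.9, 13.9 and 15.4 CPM with DMSO. It alone of the 9 had pioglitazone below DMSO in 3 of 4 lines, and its 6.14 CPM in OCI-AML3 rests on 7 estimated counts.

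MVD, the decarboxylase that yields isopentenyl diphosphate, had 34.2, 43.9, 90.5 and 74.3 CPM with pioglitazone, 34.1, 42.4, 35.6 and 42.5 CPM with darglitazone, and 31.7, 26.7, 31.4 and 37.2 CPM with DMSO. In OCI-AML3 both drugs stood at nearly the same level above DMSO, whereas in MV4-11 only pioglitazone was far above it. IDI1, the isomerase, had 58.4, 88.6, 150 and 120 CPM with pioglitazone, 45.4, 77.2, 80.4 and 98.4 CPM with darglitazone, and 46.4, 71.2, 84.8 and 77.3 CPM with DMSO. Darglitazone lay on both sides of DMSO, slightly below it in MOLM-14 and MV4-11.

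FDPS, which makes farnesyl diphosphate, had 261, 240, 394 and 256 CPM with pioglitazone, 237, 193, 203 and 195 CPM with darglitazone, and 244, 162, 212 and 160 CPM with DMSO. The MV4-11 pioglitazone library stood apart from the other 11, which lay between 160 and 261 CPM. GGPS1, on the geranylgeranyl branch, had 16.8, 50, 16.4 and 12.2 CPM with pioglitazone, 19.1, 34, 10.8 and 16.1 CPM with darglitazone, and 16.7, 36.1, 12.7 and 11 CPM with DMSO. OCI-AML3 was the high line under every treatment. For GGPS1 pioglitazone stood above DMSO in each line by a log2 ratio of 0.01 to 0.47, and darglitazone lay on both sides of DMSO. FDFT1, squalene synthase on the sterol branch, had 233, 305, 657 and 339 CPM with pioglitazone, 224, 234, 406 and 240 CPM with darglitazone, and 189, 185, 326 and 209 CPM with DMSO. As with ACAT2 and MVD, both drugs stood above DMSO in all 4 lines, with pioglitazone the higher each time.

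**Figure D1:**
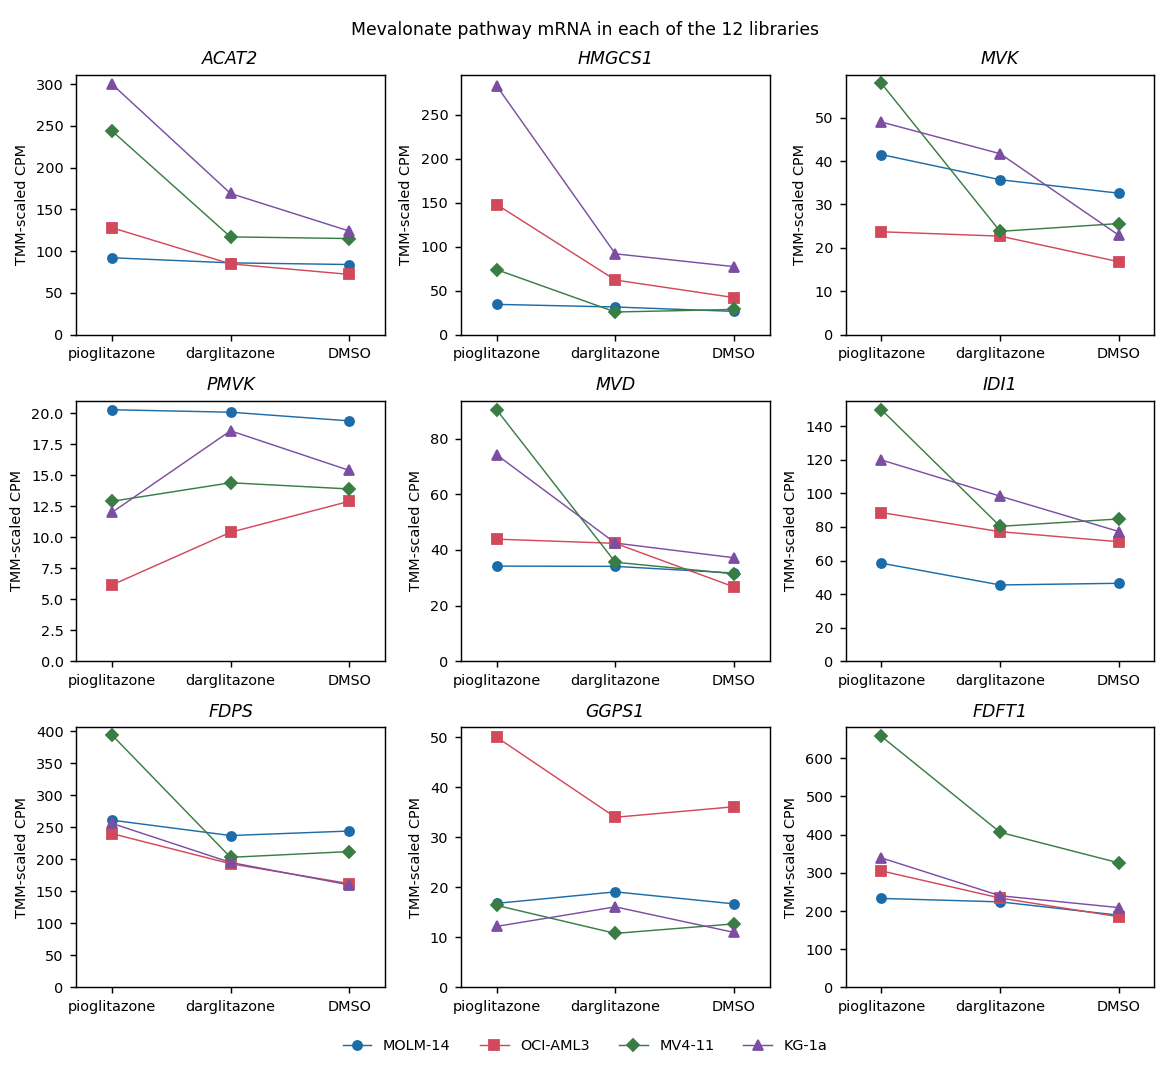
Level of each enzyme gene in TMM-scaled CPM (linear axis from 0) by treatment, with 1 point per library and a line joining the 3 libraries of a cell line. HMGCS1 in KG-1a reads 283 CPM with pioglitazone, 91.9 with darglitazone and 77.3 with DMSO, and PMVK in that line reads 12 CPM with pioglitazone, 18.6 with darglitazone and 15.4 with DMSO.

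The first comparison asked how the pathway's mRNA stood after pioglitazone relative to DMSO. HMGCS1 had the largest difference, at a log2 fold change of 1.39 ± 0.24 (standard error; mean level 135 ± 109 CPM with pioglitazone and 43.6 ± 23.5 CPM with DMSO, SD, n = 4 each). MVD (0.89 ± 0.22), ACAT2 (0.84 ± 0.16), MVK (0.82 ± 0.20), FDFT1 (0.69 ± 0.12), FDPS (0.57 ± 0.14) and IDI1 (0.54 ± 0.13) came next, each with a 95% interval above 0. GGPS1 had 0.24 ± 0.19 and PMVK -0.27 ± 0.20, with intervals that included 0. Values above 0 ran from the entry step to squalene synthase, with PMVK alone below 0. None of these differences passed the threshold once p-values were adjusted over all genes, as follows.

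The fit was edgeR's quasi-likelihood test with cell line and treatment as terms, with Benjamini-Hochberg adjustment over 15424 genes. No member passed an adjusted p of 0.05, nor did any other gene (0% of genes; smallest adjusted p 0.171, with 919 genes at an unadjusted p under 0.05). The smallest adjusted p values among members were those of FDFT1 (adjusted p = 0.188, 95% interval 0.44 to 0.94), ACAT2 (adjusted p = 0.277, interval 0.49 to 1.19) and HMGCS1 (adjusted p = 0.277, interval 0.86 to 1.92). At an unadjusted p under 0.05, 7 of 9 members were higher, against 2.09% of all genes. In single lines 8 of 9 were higher in all 4, against 5.87% of all genes. The members' median log2 fold change was 0.69, beside -0.02 over all genes tested.

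Other tools differed on the calls. DESeq2's Wald test called 7 of 9 members higher, against 0.628% of the 5257 genes to which it gave an adjusted p (33 genes). The DESeq2 adjusted p was 1.1e-05 for HMGCS1, 1.63e-05 for FDFT1, 0.000733 for ACAT2, 0.0151 for IDI1 and FDPS, 0.0218 for MVD and 0.0335 for MVK, while PMVK and GGPS1 received none. limma-voom called 0 genes, with 939 at an unadjusted p under 0.05. One library moved the edgeR calls: without the MOLM-14 pioglitazone library, 3 members passed, HMGCS1 at a log2 fold change of 1.69 (edgeR adjusted p = 0.000365), ACAT2 at 1.04 (0.0158) and FDFT1 at 0.80 (0.025). Leaving out the whole MOLM-14 line left 2 members past the threshold. Over all alternatives the adjusted p ran between 2.61e-11 and 1 for HMGCS1, 1.63e-05 and 1 for FDFT1, 0.000612 and 1 for ACAT2, 0.00111 and 1 for MVD, 0.0153 and 1 for MVK, and 0.0151 and 1 for IDI1 and FDPS. The lowest values for HMGCS1, ACAT2, MVD and MVK came from edgeR without the filter on low counts. Those for FDFT1, IDI1 and FDPS came from DESeq2. Without pioglitazone in OCI-AML3 and KG-1a, the shallow library and the one rich in FP671120.3, 0 members passed, the members' median was 0.67 and HMGCS1 stood at 1.0. In the pioglitazone comparison the 8 myeloid and leukocyte markers had a median log2 fold change of -0.28 (2 positive, 2 lower at an unadjusted p under 0.05; -0.72 in OCI-AML3 and -0.53 in KG-1a), and their part in the result was not tested. Their summed level was 1075 to 2417 CPM with pioglitazone and 1131 to 3024 CPM with DMSO, and all 8 were detected.

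**Figure D2:**
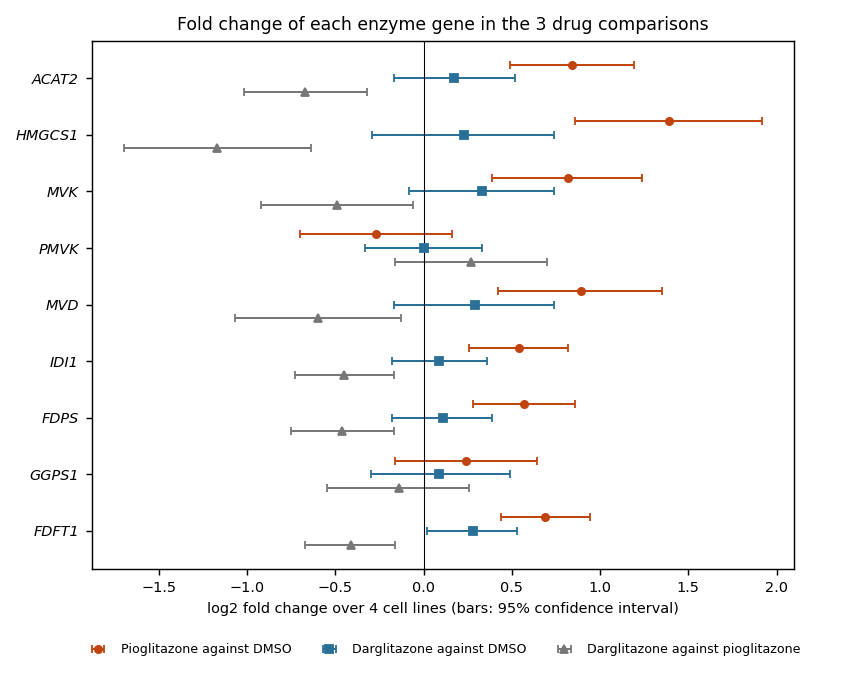
Log2 fold change over the 4 cell lines for each enzyme gene (points) with its 95% confidence interval (bars) from the edgeR fit, for pioglitazone against DMSO, darglitazone against DMSO and darglitazone against pioglitazone. For 7 genes the pioglitazone interval lies above 0, led by HMGCS1 at 1.39, while the darglitazone interval lies above 0 for FDFT1 alone.

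By cell line, the size of the pioglitazone difference was uneven. The median log2 ratio of the 9 genes was highest in MV4-11 (1.01), followed by KG-1a (0.69), OCI-AML3 (0.57) and MOLM-14 (0.13). The median of all genes was -0.01, 0.00, -0.20 and 0.00 in these lines, so that the OCI-AML3 values stand against a shifted background. In MOLM-14, 9 of 9 genes had a positive ratio but the highest was HMGCS1 at 0.38. In MV4-11 the ratios reached 1.52 for MVD, 1.37 for HMGCS1, 1.18 for MVK and 1.08 for ACAT2. KG-1a had 1.87 for HMGCS1 and 1.28 for ACAT2, and OCI-AML3 had 1.82 for HMGCS1. Within OCI-AML3 the PMVK ratio was -1.06, on 7 counts.

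Whether the drug response differed between lines was tested by an interaction of cell line with drug, either drug against DMSO. The adjusted p was 1 for all 9 members and the unadjusted p lay between 0.331 (ACAT2) and 0.95 (GGPS1). 1 gene of all passed (0.00648%, smallest adjusted p 0.0237), and 3.05% of genes (470) but 0 members had an unadjusted p under 0.05; DESeq2 called 65 genes and limma-voom 2, none of them members. The term pools the 2 drugs, so it does not test the uneven pioglitazone ratios by themselves. In MV4-11, for example, the members' median log2 ratio was 1.01 with pioglitazone and -0.06 with darglitazone. With 3 residual degrees of freedom, a p that misses the threshold does not show that the lines responded alike.

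**Figure D3:**
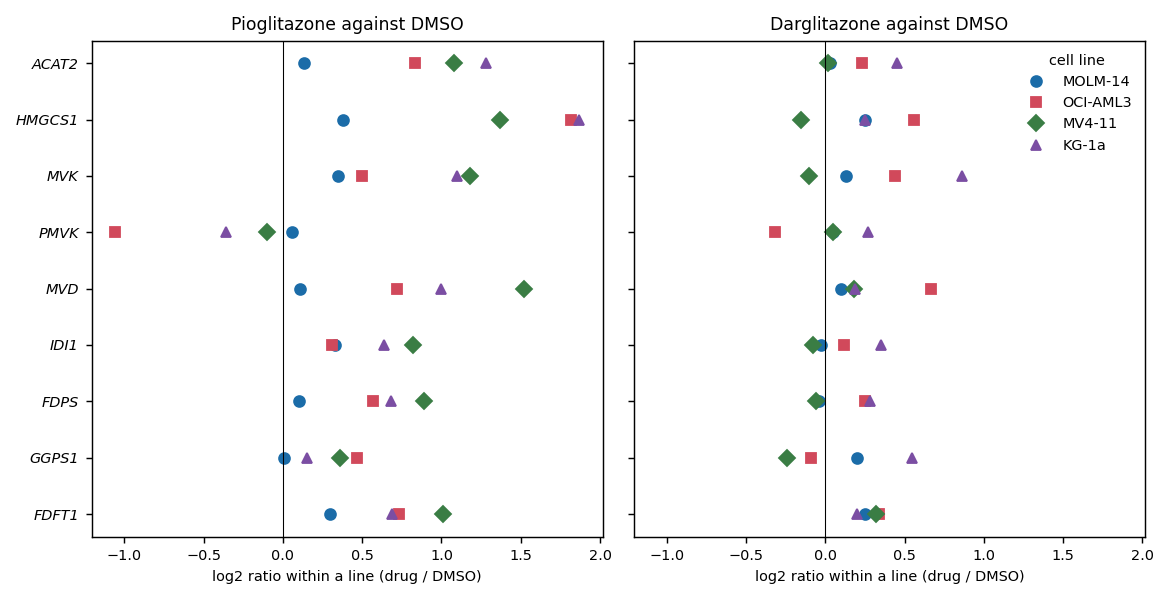
Log2 ratio of drug to DMSO within each cell line (1 point per line, prior count 2) for the 9 enzyme genes, with pioglitazone in the left panel and darglitazone in the right. MOLM-14 sits nearest 0 for most genes with pioglitazone (HMGCS1 0.38), against 1.87 in KG-1a for the same gene.

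Darglitazone, at the same dose and time, gave smaller differences from DMSO. FDFT1 was the one member whose 95% interval lay above 0, at a log2 fold change of 0.28 ± 0.12 (0.02 to 0.53, adjusted p = 1 by edgeR; mean 276 ± 86.9 CPM with darglitazone and 227 ± 66.5 CPM with DMSO, SD, n = 4 each). MVK had 0.33 ± 0.19, MVD 0.29 ± 0.21, HMGCS1 0.23 ± 0.23 and ACAT2 0.17 ± 0.16. FDPS (0.11 ± 0.13), IDI1 (0.09 ± 0.13), GGPS1 (0.09 ± 0.18) and PMVK (-0.00 ± 0.15) lay near 0. For HMGCS1 the interval ran from -0.29 to 0.74, which includes values of either sign.

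No member passed an adjusted p of 0.05 with darglitazone, nor did any gene (0%; smallest adjusted p 0.33, with 525 genes at an unadjusted p under 0.05). limma-voom called 0 genes (1428 at an unadjusted p under 0.05), and DESeq2 called 6 genes, none of them a member. At an unadjusted p under 0.05, 1 of 9 members was higher, against 1.76% of all genes. Higher in all 4 lines were 3 of 9 (ACAT2, MVD and FDFT1), against 7.07% of all genes. The members' median log2 fold change was 0.17, beside 0.01 over all genes, and by line it was 0.28 (KG-1a), 0.25 (OCI-AML3), 0.10 (MOLM-14) and -0.06 (MV4-11). KG-1a, where 9 of 9 members had a positive ratio, had MVK at 0.86, GGPS1 at 0.55 and ACAT2 at 0.45, in the library that holds some MV4-11 reads. Without that library the members' median was 0.16 and MVK stood at 0.20.

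Set directly against pioglitazone, a single pair of compounds at 10 µM and 12 hours, darglitazone had lower levels of most of the pathway. HMGCS1 differed most, at a log2 fold change of -1.17 ± 0.24 (interval -1.70 to -0.64, adjusted p = 0.98 by edgeR), with a mean of 52.8 ± 30.6 CPM with darglitazone and 135 ± 109 CPM with pioglitazone (SD, n = 4 each). ACAT2 stood at -0.67 ± 0.16, MVD at -0.60 ± 0.22, MVK at -0.49 ± 0.20, FDPS at -0.46 ± 0.14, IDI1 at -0.45 ± 0.13 and FDFT1 at -0.41 ± 0.12, each with an interval below 0. GGPS1 (-0.14, interval -0.55 to 0.26) and PMVK (0.27, interval -0.16 to 0.70) had intervals that included 0, which allow a difference in either direction.

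For this pair too, no member and no gene passed an adjusted p of 0.05 in edgeR (0%; smallest adjusted p 0.98, with 541 genes at an unadjusted p under 0.05). At an unadjusted p under 0.05, 7 of 9 members were lower, against 1.41% of all genes, and 7 were lower in all 4 lines, against 4.62% of all genes. The members' median was -0.46, beside 0.03 over all genes. DESeq2 called 2 members lower, against 0.379% of the 3164 genes to which it gave an adjusted p (12 genes): HMGCS1 (DESeq2 adjusted p = 0.00136) and ACAT2 (0.0385; 0.0199 to 1 over all alternatives). FDFT1 (0.092), IDI1 (0.116) and FDPS (0.144) missed DESeq2's threshold. limma-voom called 0 genes, with 866 at an unadjusted p under 0.05. HMGCS1, without the MOLM-14 pioglitazone library, passed in edgeR at -1.47 (adjusted p = 0.000996). Over all alternatives its adjusted p ran between 3.42e-08 and 1. The lowest value, for HMGCS1 as for ACAT2, came from edgeR without the filter on low counts. Without pioglitazone in OCI-AML3 and KG-1a, HMGCS1 stood at -0.79, with 0 members past the threshold and a members' median of -0.55. By line the members' median was -0.95 (MV4-11), -0.40 (KG-1a), -0.32 (OCI-AML3) and -0.10 (MOLM-14). The comparisons share libraries with those against DMSO, so they are not independent of each other.

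Across cell lines the members had their own order of levels, taken from means over the 3 libraries of a line, drug libraries included. With DMSO alone, HMGCS1, GGPS1, IDI1 and PMVK kept the order given here. ACAT2 with DMSO had MOLM-14 (83.9 CPM) above OCI-AML3 (72.1 CPM), and so had FDFT1 (189 and 185 CPM). MVK with DMSO was highest in MOLM-14 (32.6 CPM), above MV4-11 (25.6 CPM), KG-1a (22.9 CPM) and OCI-AML3 (16.8 CPM). The test of cell line passed for 7 of 9 members, against 72.6% of all genes. GGPS1 stood highest in OCI-AML3 (40 ± 8.7 CPM, SD over the line's 3 libraries, which carry different treatments), above MOLM-14 (17.6 ± 1.37 CPM), with MV4-11 (13.3 ± 2.86 CPM) and KG-1a (13.1 ± 2.69 CPM) overlapping (edgeR adjusted p = 2.22e-05). FDFT1 was highest in MV4-11 (463 ± 173 CPM), ahead of KG-1a (263 ± 67.6 CPM), OCI-AML3 (241 ± 60.7 CPM) and MOLM-14 (215 ± 23.2 CPM), with each neighbour's range overlapping the next (adjusted p = 2.11e-05 by edgeR). HMGCS1 was highest in KG-1a (151 ± 115 CPM), followed by OCI-AML3 (84.1 ± 56.4 CPM), MV4-11 (42.7 ± 27 CPM) and MOLM-14 (30.8 ± 4.03 CPM), a 4.9-fold span with overlapping neighbours (adjusted p = 0.000176 by edgeR).

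ACAT2 followed the order KG-1a, MV4-11, OCI-AML3, MOLM-14 (198 ± 91.6, 159 ± 74.1, 95 ± 29.4 and 87.3 ± 4.2 CPM; edgeR adjusted p = 0.000227), with all neighbours overlapping. IDI1 ran MV4-11, KG-1a, OCI-AML3, MOLM-14 (105 ± 39, 98.6 ± 21.4, 79 ± 8.83 and 50.1 ± 7.22 CPM; edgeR adjusted p = 0.000103), and MOLM-14 lay apart below the rest. PMVK was highest in MOLM-14 (19.9 ± 0.436 CPM), apart from KG-1a (15.3 ± 3.32 CPM), MV4-11 (13.7 ± 0.745 CPM) and OCI-AML3 (9.81 ± 3.43 CPM), which overlapped (adjusted p = 0.0124 by edgeR). MVK had its lowest mean in OCI-AML3 (21.1 ± 3.75 CPM), followed by MV4-11 (35.8 ± 19.2 CPM), MOLM-14 (36.6 ± 4.52 CPM) and KG-1a (37.8 ± 13.5 CPM; adjusted p = 0.0281 by edgeR). The OCI-AML3 range (up to 23.7 CPM) ended just under that of MV4-11 (from 23.8 CPM) and overlapped that of KG-1a (from 22.9 CPM). MVD (adjusted p = 0.17) and FDPS (adjusted p = 0.0538 by edgeR) did not pass, with spans of 1.57-fold and 1.36-fold between the highest and lowest line.

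Some of these calls depend on 1 line, library or setting. Over all alternatives 5 to 8 members passed, beside 7535 to 12363 genes in all, with 10513 to 34975 genes tested. MVK lost its call without any of 5 single libraries (edgeR adjusted p 0.0534 to 0.111), and PMVK without the MOLM-14 pioglitazone library (adjusted p = 0.0797). With a whole line left out, the adjusted p was 0.814 for MVK and 0.154 for GGPS1 without OCI-AML3, 0.187 for PMVK and 0.178 for IDI1 without MOLM-14, and 0.245 for FDFT1 without MV4-11. MVK was also lost with protein-coding transcripts only (adjusted p = 0.0501) and without pioglitazone in OCI-AML3 and KG-1a (0.166), and PMVK after all libraries were thinned to the shallowest total (0.102). FDPS passed with DESeq2 (DESeq2 adjusted p = 0.0449), which called 8 of 9 members and 11601 of 15424 genes. In edgeR FDPS passed with library sizes from nuclear protein-coding genes (edgeR adjusted p = 0.0321). It also passed in 3 fits that left out 1 library, with an edgeR adjusted p of 0.0233 without the MOLM-14 pioglitazone library, 0.0415 without the OCI-AML3 darglitazone library and 0.0293 without the MV4-11 darglitazone library.

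Within lines, the levels of 7 members varied together. After each line's mean was removed from log2 CPM, the 21 pairs among the 7 genes other than PMVK and GGPS1 had Pearson's r between 0.81 and 0.97 over the 12 libraries (median 0.93). GGPS1 correlated with those 7 at 0.47 to 0.65, and PMVK with the other 8 at -0.81 to -0.33. These values describe 12 libraries that share treatments and depths, and they carry no test. Among 8597 other protein-coding genes, those most like the members' mean in the same measure were PANK3 (r = 0.96), FADS2 (0.96), SCD (0.95), ANKRD28 (0.94) and FASN (0.94). PANK3 is a pantothenate kinase of coenzyme A synthesis, and FADS2, SCD and FASN are enzymes of fatty acid desaturation and synthesis. Their log2 fold changes were 0.59, 0.79, 1.0, 0.78 and 0.73 in that order for pioglitazone against DMSO, and 0.22, 0.13, 0.19, 0.11 and 0.27 for darglitazone against DMSO. These genes were picked for following the members' mean, which was highest with pioglitazone in every line. Fold changes of this pattern therefore follow from the choice and are a description only.

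The enzymes after squalene had values of a like size. Of 12 late sterol enzymes, from squalene to cholesterol, 11 had a positive pioglitazone log2 fold change against DMSO, beside 46.5% of all genes tested. At an unadjusted p under 0.05, 9 were higher, beside 2.09% of all genes, and 0 passed the adjusted threshold. Their median was 0.64. With a library or line left out the median ran between 0.41 (without the MV4-11 pioglitazone library) and 0.83 (without MOLM-14). CYP51A1, the lanosterol demethylase, stood at 0.71 ± 0.14 (adjusted p = 0.277 by edgeR), and LSS, lanosterol synthase, at 0.89 ± 0.18 (adjusted p = 0.277 by edgeR). Among 8 genes of the SREBP machinery, 6 were positive and 3 were higher at an unadjusted p under 0.05 (46.5% and 2.09% of all genes). Their median was 0.15. With a library or line left out this median ran between 0.04 (without the KG-1a DMSO library) and 0.41 (without MOLM-14); it was 0.37 without the pioglitazone or the DMSO library of MOLM-14, 0.29 without the MV4-11 DMSO library, 0.23 without MV4-11, 0.08 without the OCI-AML3 DMSO library and 0.09 without KG-1a. It was 0.38 after thinning to the shallowest total, 0.37 without the cell line in the model, 0.29 with protein-coding transcripts only and 0.08 without the filter on low counts. INSIG1, which retains SREBP in the endoplasmic reticulum and is itself an SREBP target, had 1.02 ± 0.20 (adjusted p = 0.292 by edgeR), and STARD4, a sterol carrier, 0.70 ± 0.20 (adjusted p = 0.627 by edgeR).

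Other enzymes use the pathway's prenyl diphosphates for dolichol, ubiquinone, haem A and protein prenylation. Of these genes, 3 of 12 were positive with pioglitazone against DMSO, beside 46.5% of all genes tested, and 0 had an unadjusted p under 0.05 in either direction. The median was -0.09 (-0.14 to 0.01 over all alternatives), beside -0.02 over all genes. FNTB, the farnesyltransferase beta subunit, had -0.40 ± 0.20 (adjusted p = 0.869 by edgeR) and RABGGTB, a subunit of the Rab prenyltransferase, 0.21 ± 0.14 (adjusted p = 0.929 by edgeR). IDI2, a paralog of IDI1, was at 0 in every library. The mitochondrial thiolase ACAT1 had -0.01 ± 0.17, with an interval that included 0.

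With darglitazone against DMSO, 2 of 12 users of prenyl diphosphates were lower at an unadjusted p under 0.05 by edgeR, against 254 of 15424 genes. They were FNTB at -0.53 and NUS1 at -0.41, and 4 of the 12 users were positive. In that comparison the late sterol enzymes had a median of 0.13 and 0 genes at an unadjusted p under 0.05. Of these 12, 9 were positive, beside 51% of all genes. The median was 0.02 for the SREBP machinery and -0.10 for users of prenyl diphosphates. With darglitazone against pioglitazone the median was -0.45 for late sterol enzymes (0 of 12 positive, 8 lower at an unadjusted p under 0.05). It was -0.24 for the SREBP machinery (2 of 8 lower at an unadjusted p under 0.05). For users of prenyl diphosphates it was -0.03 (5 of 12 positive). Of these 12, 1 was lower at an unadjusted p under 0.05, NUS1 at -0.49. Of all genes in this comparison, 55% were positive and 1.41% were lower at an unadjusted p under 0.05. These lists share libraries with the members, and their differences from the members were not tested.

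**Figure D4:**
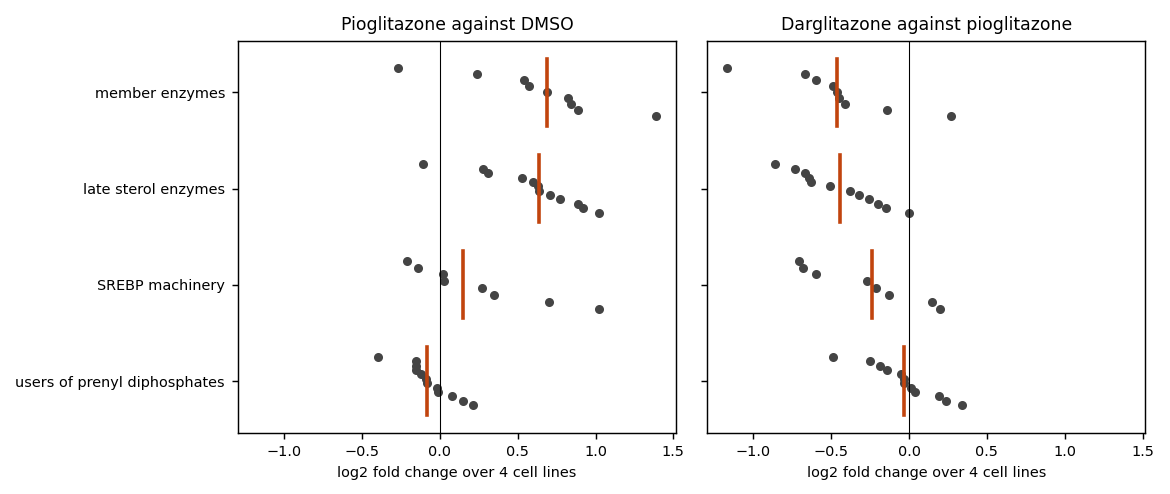
Log2 fold change over the 4 cell lines of each gene (points) in 4 lists, with the list median as a vertical bar, for pioglitazone against DMSO (left) and darglitazone against pioglitazone (right). The pioglitazone medians read 0.69 for the 9 enzymes, 0.64 for late sterol enzymes, 0.15 for the SREBP machinery and -0.09 for users of prenyl diphosphates.

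At the transcript level, the estimated split within genes was steadiest for IDI1, where IDI1-201 held 91.2 to 96.4% of the gene's counts in the 12 libraries; PMVK has a single transcript in the table. MVD-201 held 47.2 to 92.5% and ACAT2-201 43.5 to 74.9%, each lowest in the shallow OCI-AML3 pioglitazone library. HMGCS1-202 was the main HMGCS1 form at a median of 59.3% (32.6 to 81.9%), followed by HMGCS1-201 at 29.4% (0 to 48.5%). FDPS was shared between FDPS-203 (median 31.4%) and FDPS-206 (31.7%), and FDFT1 between FDFT1-209 (29.1%), FDFT1-202 (23.3%) and FDFT1-201 (21.1%). In the OCI-AML3 pioglitazone library GGPS1-204 was assigned 48% of GGPS1, against at most 15% in the other 11, and MVK-201 was assigned 0% of 27.29 counts. Transcript shares rest on the authors' estimate, and no test was made of them.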

How the data were processed

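Total RNA from 12 samples was sequenced after ribosomal depletion with a stranded kit, per the labels' protocols. The submitters' processing notes name fastp, FastQC, STAR, featureCounts, DESeq2 and GRCh38; no source used here names the step that gave the fractional values. The deposited values are estimated counts per transcript, not normalized by the authors (89.84% of nonzero values were not whole, tolerance 1e-06). Here 202941 of 203027 transcripts were matched to GENCODE 29 and summed per gene, unmatched ones holding at most 0.0169% of a library, and gene sums were rounded to whole numbers.

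The fit was edgeR 4.0.16 in R 4.3.3: genes kept by filterByExpr (minimum count 10, minimum total 15), TMM scaling, and a robust quasi-likelihood F test with cell line and treatment as terms over all 12 libraries (6 residual degrees of freedom), adjusted over all genes by Benjamini-Hochberg with a threshold of 0.05. Cell line is the replicate number and pairs the libraries, since same-numbered samples are the same line. TPM used annotated transcript lengths. Single-line log2 ratios used a prior count of 2. DESeq2 1.42.0 and limma-voom (limma 3.58.1) were alternatives, beside other scalings, filters, depths and left-out libraries. The scripts were tested on simulated data. Genes were named by rule: all 9 members, the 2 genes of each other list with the smallest pioglitazone p (where none passed), and the 5 genes most like the members' mean. Some items of these lists are not reported here. Other genes named were chosen after their values were seen. The members and lists were chosen with earlier results of these data known. Intervals and floors cover counting error and the spread of treatment differences between lines only.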

Additional observations from a re-analysis of the deposited data

Results flagged for a closer look

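Among the 4 lines of a treatment, 3 values stood far from the rest by Dixon's criterion, out of 27 groups examined, where chance marks about 1 group in 20. FDPS read 394 CPM in the MV4-11 pioglitazone library, with the other lines at 240 to 261 CPM. GGPS1 read 50 CPM in the OCI-AML3 pioglitazone library, on 57.06 estimated counts, with the other lines at 12.2 to 16.8 CPM; OCI-AML3 was also the highest line for GGPS1 with darglitazone and DMSO. FDFT1 read 406 CPM in the MV4-11 darglitazone library, with the other lines at 224 to 240 CPM. MV4-11 was also the highest line for FDFT1 with pioglitazone (657 CPM) and DMSO (326 CPM).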

How the results depend on the processing

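Over 27 alternative settings, 683 of 729 member fold changes kept their sign and side of the threshold, 27 newly passed it and 19 changed sign. The members' median ranged over 0.57 to 0.83 for pioglitazone against DMSO, 0.04 to 0.32 for darglitazone against DMSO and -0.59 to -0.29 for darglitazone against pioglitazone, and 7 members stayed above 0 (pioglitazone against DMSO) and 7 below 0 (darglitazone against pioglitazone) in every setting. Calls depended on the settings, and the cause was not tested. For pioglitazone against DMSO (0 members, 0 genes), they were 5 members and 223 genes with no low-count filter, 7 and 56 with DESeq2, 4 and 10 after thinning to the shallowest total, and 0 to 3 members and 0 to 14 genes with a library or line left out. For darglitazone against DMSO (0 genes), they were 76, 6, 1 and 0 to 3 genes in the same settings. For darglitazone against pioglitazone (0 members, 0 genes), they were 2 members and 88 genes with no filter, 2 and 12 with DESeq2, and 0 to 1 members and 0 to 4 genes with a library or line left out. The drug response by cell line (1 gene) had 124 genes with no filter, 65 with DESeq2, 2 with limma-voom, 0 without the robust fit, 4 after thinning, 0 with protein-coding transcripts only, 85 without pioglitazone in OCI-AML3 and KG-1a, 8 without the KG-1a darglitazone library and 0 to 22 with a library or line left out. It could not be fitted without a DMSO library. No filter tested 34975 genes and thinning 10513.

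Signs changed for fold changes near 0. GGPS1 stood at -0.01 after thinning with pioglitazone against DMSO. With darglitazone against DMSO, PMVK (-0.00) stood at 0.01 with DESeq2 size factors, 0.00 with library sizes from nuclear protein-coding genes, 0.00 with DESeq2, 0.04 after thinning, 0.01 with protein-coding transcripts only and -0.11 to 0.15 with a library or line left out. IDI1 stood at -0.00 after thinning and -0.02 to 0.17 with one left out, and GGPS1 at -0.03 with limma-voom, -0.06 without the KG-1a darglitazone library and -0.06 to 0.20 with one left out. With darglitazone against pioglitazone, GGPS1 stood at 0.12 after thinning and -0.31 to 0.02 with one left out. Without the pairing by cell line (no replicate block), PMVK stood at 0.04 with darglitazone against DMSO, the members' pioglitazone median was 0.76 and no call changed in the 3 drug comparisons. Low counts limit PMVK, MVK and GGPS1 in the OCI-AML3 pioglitazone library.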
